A study of Mus musculus with 12 samples.

Results

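The effect of losing PAN2 was measured at 2 points of mouse sperm formation, and the results below concern how far that effect depended on the stage. All 12 libraries of the series entered, in a design of 2 genotypes by 2 stages with 3 libraries in each group. The KO groups came from Pan2flox/-;Stra8-Cre mice, which carry 1 deleted and 1 floxed allele of Pan2 and a Cre recombinase driven by the promoter of Stra8, a gene that germ cells switch on around the entry into meiosis. The WT groups are labelled wildtype. Neither strain nor age is stated in the labels, nor whether the wildtype carried Cre or floxed alleles. RS stands for round spermatids, the haploid cells that leave meiosis, and MII for spermatocytes of the MII stage, which come just before them. The cells were sorted by FACS, and poly(A) RNA was primed with oligo(dT) and amplified by Smart-seq2, a full-length cDNA method for small amounts of RNA. The labels do not tie the 3 libraries of a group to different mice, and the p-values here speak of library-to-library spread alone, part of which may be technical.

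PAN2 is the catalytic subunit of the PAN2-PAN3 deadenylase, which is recruited through the poly(A)-binding protein and trims the long tails of cytoplasmic mRNAs before the CCR4-NOT complex takes over. Tail length bears on both the stability and the translation of an mRNA. In the male germ line many mRNAs are made in meiotic and early haploid cells, stored, and translated only later, when transcription has stopped and the nucleus is packed with protamines. Since the libraries were primed on poly(A), a count reflects both the amount of an mRNA and how well its tail was captured, and these cannot be told apart here.

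Total counts per library lay between 13781370 and 38652066, and 21291 genes were tested. Values below are CPM, which is counts after scaling for the size of each library, and effects are log2 fold changes of KO over WT. Pan2 itself (chromosome 10, 128303335 to 128321358, plus strand, mm10) was counted as a check of the labels, over all of its exons, because the labels do not name the floxed exons. KO RS libraries had 22.6, 4.73 and 3.52 CPM of Pan2, against 9.93, 8.13 and 12.9 CPM in WT RS libraries. KO MII libraries had 5.57, 7.10 and 5.07 CPM, against 12.9, 17.1 and 13.3 CPM in WT MII libraries. The KO MII libraries lay below every WT MII library, and 2 of the libraries labelled KO RS lay below every WT RS library. Among all 12 libraries the highest Pan2 value was in that labelled KO RS replicate 1, which went against its label. In 3110070M22Rik, described below, the same library went with its label. It had 0.965 CPM, where all KO libraries had 0.607 to 0.976 CPM and all WT libraries 126 to 164 CPM. The cause of its Pan2 value was not tested. The main counts are given with and without that library. The effect on Pan2 was 0.00 (SE 0.533, adjusted p = 0.998) in RS and -1.28 (SE 0.549, adjusted p = 0.227) in MII with it, against -1.32 (adjusted p = 0.00782) in RS and -1.28 (adjusted p = 0.00469) in MII without it. The difference between the effects on Pan2 (RS minus MII) was 1.28 (SE 0.764, adjusted p = 0.740) with the library labelled KO RS replicate 1 and -0.04 (adjusted p = 0.994) without it, by edgeR's quasi-likelihood test.

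The libraries also differed in transcripts of other cells. The 26 tested Sertoli cell markers, genes of the cells that nurse the germ line, summed to between 67.9 and 400.0 CPM in KO RS libraries, against 15.8 to 19.4 CPM in WT RS libraries. The KO MII libraries reached 140 to 564 CPM and the WT MII libraries 42.7 to 71.6 CPM. The library labelled KO RS replicate 1 had the highest sum among RS libraries. The 18 markers of Leydig cells, which make testosterone, summed to 125 to 141 CPM in KO RS libraries and 109 to 128 CPM in WT RS libraries, ranges that overlapped, and to 272 to 428 CPM in KO MII libraries, against 194 to 201 CPM in WT MII libraries. The stages themselves were close in late spermatocyte markers. The 18 late spermatocyte markers summed to 11933 to 12385 CPM in KO RS and 11192 to 12840 CPM in WT RS libraries, and to 12149 to 13169 CPM in KO MII and 12291 to 12684 CPM in WT MII libraries, so these genes did not set the stages apart. The 19 round spermatid markers summed to 9412 to 10643 CPM in KO RS libraries, against 6575 to 8930 CPM in WT RS libraries. The KO MII libraries held 7398 to 8301 CPM of them and the WT MII libraries 5722 to 7361 CPM. Their sums in KO RS libraries thus lay above those in KO MII libraries, while the WT ranges of the stages overlapped. Both kinds of marker were thus abundant in both fractions, and a difference seen in a fraction cannot be assigned to 1 cell type alone. In bulk samples fewer cells of a type and less RNA per cell cannot be told apart.

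**Figure D1:**
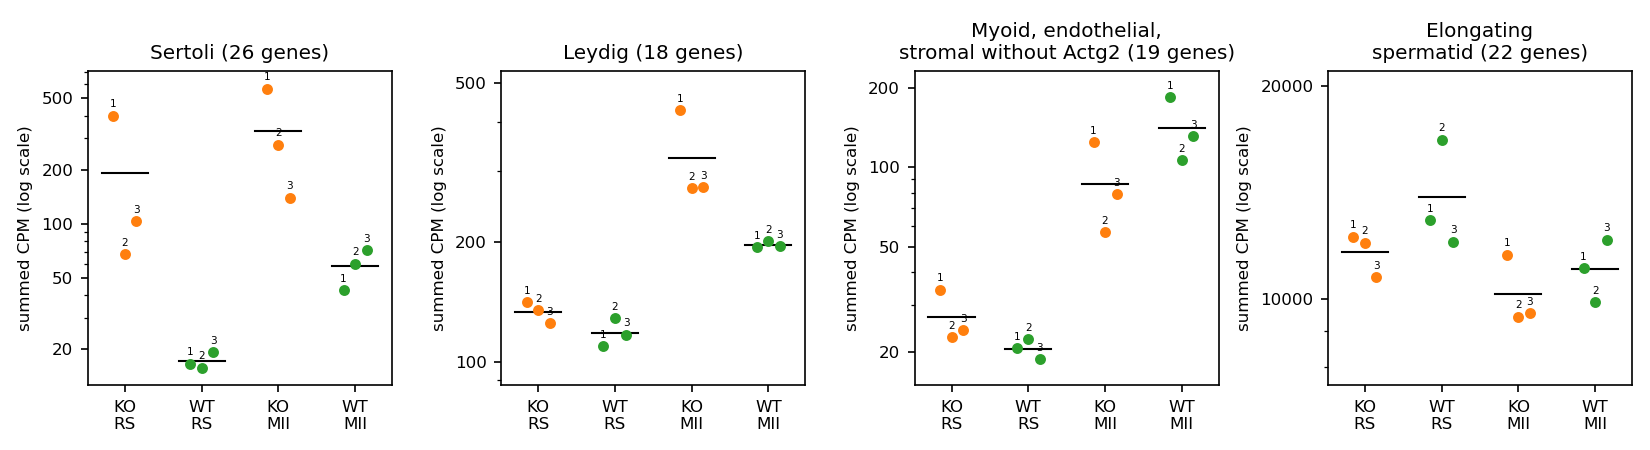
Summed CPM (log axis) of 4 marker lists in each library, with the 3 KO libraries left of the 3 WT libraries of each stage, replicate numbers above the points and a bar at the group mean. Sertoli sums were higher in every KO library than in every WT library of its stage (67.9 to 400.0 against 15.8 to 19.4 CPM in RS, 140 to 564 against 42.7 to 71.6 CPM in MII).

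The question put to all genes was whether the knockout effect in RS differed from that in MII, tested as (KO RS minus WT RS) minus (KO MII minus WT MII). Only Acta2, which encodes the smooth muscle actin of contractile cells, passed the test across all genes. It was 1 of 21291 genes (0.00470%), with a difference of 3.04 (SE 0.440, 95% interval 2.12 to 3.96, edgeR quasi-likelihood test, adjusted p = 0.0269). At an unadjusted p under 0.05 there were 1405 genes (6.60%), 657 with a positive difference (3.09%) and 748 with a negative one (3.51%). Other tools differed on this count: DESeq2 called 19 genes (13 positive, 6 negative) and limma-voom 0, with 1391 at an unadjusted p under 0.05. Acta2 (chromosome 19, 34241090 to 34255590, minus strand, mm10) belongs to the myoid, endothelial and stromal marker list. Its level was 6.66, 5.01 and 4.07 CPM in KO RS libraries, against 3.40, 3.32 and 2.54 CPM in WT RS libraries. For MII, it was 9.88, 5.19 and 5.25 CPM in KO libraries, against 51.3, 22.6 and 24.7 CPM in WT libraries. The KO libraries lay above all WT libraries in RS and below all WT libraries in MII. The effect was 0.76 (SE 0.317, adjusted p = 0.115) in RS and -2.27 (SE 0.309, adjusted p = 0.000664) in MII. Along the other axis of the design, the change of RS over MII in Acta2 was -0.36 (SE 0.308, adjusted p = 0.490) in KO and -3.40 (SE 0.326, adjusted p = 4.37e-06) in WT. The 3 WT MII libraries were the highest of the 12. The positive direction of the Acta2 difference held in all 23 alternative settings (2.57 to 3.58), but its call did not. The call was lost without KO RS replicate 2 (adjusted p = 0.0843), WT RS replicate 1 (0.102), WT RS replicate 2 (0.170), WT RS replicate 3 (0.215), KO MII replicate 2 (0.0988), KO MII replicate 3 (0.0566) or WT MII replicate 1 (0.0794).

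Some other genes of the same contractile apparatus gave large differences that did not pass the test in the main fit. They were chosen for naming after their values were seen. Myl9 encodes the regulatory light chain of smooth muscle myosin (chromosome 2, 156775420 to 156781658, plus strand). Myl9 was counted at 5.59, 0.788 and 1.02 CPM in KO RS libraries, against 0.114, 0.0620 and 0.0748 CPM in WT RS libraries. Within MII, levels were 9.51, 3.51 and 3.12 CPM in KO, against 26.5, 14.4 and 13.6 CPM in WT. As for Acta2, KO libraries lay above WT libraries in RS and below them in MII. The highest RS value was in the library labelled KO RS replicate 1. The effect on Myl9 was 4.81 (SE 1.04, adjusted p = 0.0125) in RS and -1.75 (SE 0.634, adjusted p = 0.157) in MII. The RS call was lost without WT RS replicate 1 (adjusted p = 0.0547), WT RS replicate 2 (0.0544) or WT RS replicate 3 (0.0955). Dropping the library labelled KO RS replicate 1 gave 3.33 in RS (adjusted p = 0.00782) and -1.75 in MII, where it then passed (adjusted p = 0.00886). The Myl9 difference was 6.57 (SE 1.22, adjusted p = 0.419). It passed in 5 of 23 alternative settings, among them DESeq2 (adjusted p = 0.000496). Without the library labelled KO RS replicate 1, 2 of 21811 genes passed (0.00917%), Myl9 at 5.08 (adjusted p = 0.0342) and Acta2 at 2.83 (adjusted p = 0.0493). Myh11 encodes the smooth muscle myosin heavy chain. Myh11 stood at 0.193, 0.215 and 0.0847 CPM in KO RS libraries, against 0.0572, 0.0620 and 0.150 CPM in WT RS libraries. The MII values were 0.244, 0.131 and 0.607 CPM in KO libraries, against 6.29, 2.98 and 5.06 CPM in WT libraries. Its MII groups did not overlap, while its RS values all lay at or under 0.215 CPM and their groups overlapped. The Myh11 difference was 4.84 (SE 0.900, adjusted p = 0.173) and its MII effect was -3.92 (adjusted p = 0.000504). Its difference passed with DESeq2 (adjusted p = 0.00146) and with no filter for low counts (0.000156). Tpm2, a tropomyosin of muscle, had a difference of 4.22 (SE 1.05, adjusted p = 0.537), and Cald1, the actin-binding protein caldesmon, had a difference of 2.20 (SE 0.544, adjusted p = 0.537). With no filter for low counts both passed (adjusted p = 7.01e-05 for Tpm2 and 0.00177 for Cald1).

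The whole list of 20 tested myoid, endothelial and stromal markers, from which Acta2 came, had a median effect of 0.39 in RS and -0.44 in MII and a median difference of 0.81, against -0.01, -0.01 and -0.03 over all genes tested. Of the 20 genes, 1 was higher in RS, 3 were lower in MII, 16 had a difference above 0 and 9 had an unadjusted p under 0.05. Over all genes tested, 6.06% were higher in RS and 1.86% lower in MII. A difference above 0 was found for 10173 of 21291 genes, and 6.60% had such a p. The sum of the list was led by Actg2, another smooth muscle actin. Actg2 by itself, the part of the sum outside the other 19 genes, overlapped between KO and WT in both stages, unlike Acta2. Without Actg2, the other 19 genes summed to 34.3, 22.7 and 24.1 CPM in KO RS libraries, against 20.6, 22.2 and 18.7 CPM in WT RS libraries. In MII they summed to 124, 56.8 and 78.9 CPM in KO libraries, against 184, 106 and 131 CPM in WT libraries. For these 19 genes, KO and WT ranges did not overlap in RS and overlapped in MII, and WT MII libraries held the highest sums. The full list of 20 genes summed to 192 to 241 CPM in KO RS and 153 to 298 CPM in WT RS libraries. In MII it summed to 185 to 270 CPM in KO and 223 to 343 CPM in WT libraries, so both stages overlapped. The part of such transcripts in the Acta2 difference was not tested.

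The promoters of Acta2 and Myl9 are shown because Acta2 passed the test of the difference, and both genes passed it without the library labelled KO RS replicate 1. Each window runs from 250 bases before to 50 bases after the start of the gene (RefSeq, GRCm38.p6) and is written 5′ to 3′ along the gene. Capitals mark a CArG box, the element that serum response factor binds in smooth muscle genes, searched on both strands in its strict form, CC, then 6 bases that are A or T, then GG, with no mismatch.
Acta2 (chr19:34255324-34255623, minus strand): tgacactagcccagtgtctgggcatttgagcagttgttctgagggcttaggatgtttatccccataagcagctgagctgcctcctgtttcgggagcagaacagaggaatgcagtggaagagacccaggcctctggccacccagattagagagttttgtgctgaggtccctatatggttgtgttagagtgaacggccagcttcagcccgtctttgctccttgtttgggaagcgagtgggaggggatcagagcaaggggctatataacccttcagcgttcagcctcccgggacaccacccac
Myl9 (chr2:156775214-156775513, plus strand): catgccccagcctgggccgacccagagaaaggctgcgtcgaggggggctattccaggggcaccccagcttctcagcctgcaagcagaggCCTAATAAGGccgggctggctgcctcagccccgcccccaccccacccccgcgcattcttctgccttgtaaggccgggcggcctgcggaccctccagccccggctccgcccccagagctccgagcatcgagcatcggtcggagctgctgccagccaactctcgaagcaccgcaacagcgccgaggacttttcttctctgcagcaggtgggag
The Myl9 window held 1 match, starting at base 90 of the window, and the Acta2 window held 0 in this form, which says nothing of the factor. The strict form was found in 1.63% of all 32851 promoter windows of this length, and in 1.61% of the 13946 tested genes that matched a window by symbol. With up to 1 mismatch, a search chosen after seeing the data, the Acta2 window held 2 matches and the Myl9 window 2, and 21.1% of all windows and 21.3% of those of tested genes held at least 1.

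**Figure D2:**
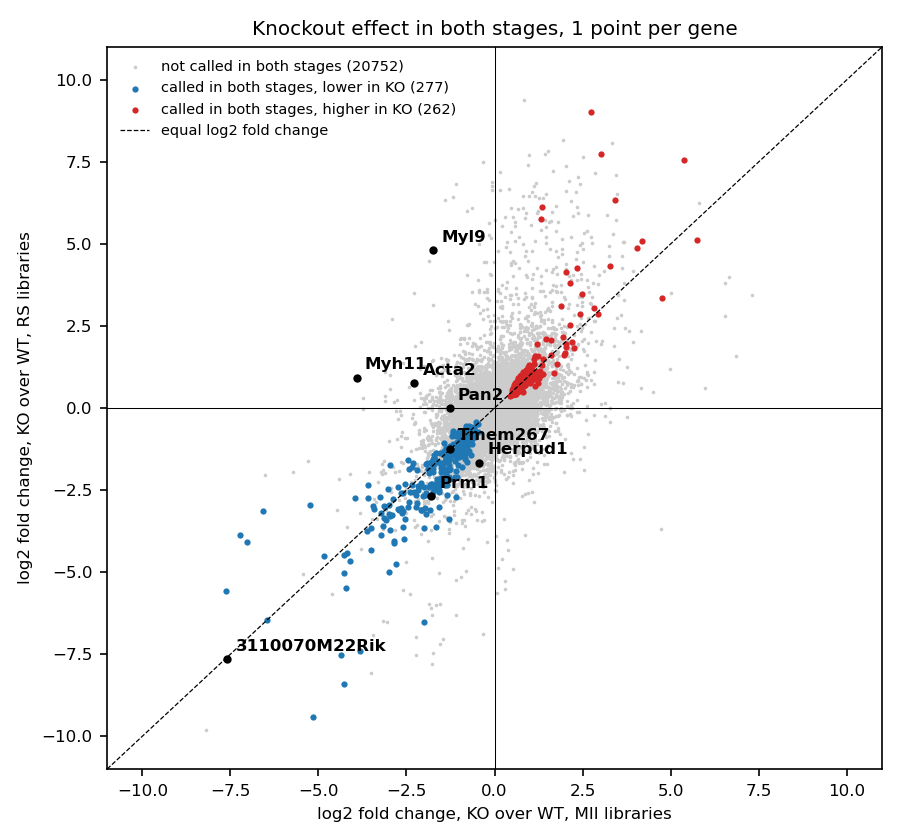
Log2 fold change of KO over WT in RS libraries (vertical axis) against that in MII libraries (horizontal axis) for each of 21291 genes. Red and blue points were called in both stages, 262 higher and 277 lower in KO, and lie along the dashed line of equal effect, while Acta2, Myl9 and Myh11 lie above it, on the left.

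Among genes of germ cells, none passed the test of the difference in the main fit. Some of the smallest p-values belonged to transcripts that were lower in KO in RS and by less, or not, in MII. These were chosen after their values were seen. Herpud1 encodes a protein of the endoplasmic reticulum that helps remove misfolded proteins (chromosome 8, 94386438 to 94395377, plus strand). KO RS libraries had 19.7, 19.3 and 18.6 CPM of Herpud1, against 56.8, 66.9 and 59.2 CPM in WT RS libraries. KO MII libraries had 46.9, 38.7 and 47.0 CPM, against 53.4, 71.1 and 54.4 CPM in WT MII libraries. The 3 KO RS libraries lay below the other 9, and in MII the KO libraries also lay below all WT libraries, by less. The Herpud1 effect was -1.66 (SE 0.157, adjusted p = 4.43e-06) in RS and -0.43 (SE 0.152, adjusted p = 0.117) in MII, and the difference was -1.23 (SE 0.217, 95% interval -1.68 to -0.78, adjusted p = 0.173). It passed without WT MII replicate 2 (-1.42, adjusted p = 0.0179), with DESeq2 (adjusted p = 0.000465) and with no filter for low counts (0.00153).

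Mlh3, a mismatch repair protein that resolves meiotic crossovers, was also lower in RS. Its level was 2.22, 1.40 and 2.29 CPM in KO RS libraries, against 6.12, 5.02 and 8.53 CPM in WT RS libraries. For MII, it was 10.2, 12.4 and 10.3 CPM in KO libraries, against 11.9, 13.9 and 9.55 CPM in WT libraries. The KO and WT libraries of Mlh3 did not overlap in RS and overlapped in MII. Its difference was -1.64 (SE 0.344, adjusted p = 0.393), and it passed with DESeq2 (adjusted p = 0.0135) and with no filter for low counts (0.00386). Cdc20 activates the anaphase-promoting complex at the end of each division. Cdc20 was counted at 61.8, 65.4 and 71.5 CPM in KO RS libraries, against 156, 137 and 207 CPM in WT RS libraries. Within MII, levels were 104, 114 and 138 CPM in KO, against 134, 196 and 118 CPM in WT. The KO RS libraries lay below all other libraries. The Cdc20 difference was -1.0 (SE 0.262, adjusted p = 0.623), and it passed with no filter for low counts (adjusted p = 0.0106). Odf3b, a gene related to a sperm tail protein, was lower in KO in both stages, with effects of -3.38 in RS (adjusted p = 6.15e-06) and -1.29 in MII (adjusted p = 0.0265). The Odf3b difference was -2.09 (SE 0.444, adjusted p = 0.393), and Odf3b passed with DESeq2 (adjusted p = 0.0210) and with no filter for low counts (0.00797). Its MII call was lost without KO MII replicate 1 (adjusted p = 0.0543), KO MII replicate 2 (0.132) or WT MII replicate 3 (0.0683). For Idh1, the cytosolic isocitrate dehydrogenase, for Cep55, a protein of the bridge between dividing cells, and for Slc2a3, a glucose transporter, the effects in MII were -0.14, -0.27 and -0.46 (adjusted p = 0.729, 0.519 and 0.169). Their differences were -1.16, -1.30 and -1.02 (adjusted p = 0.438, 0.438 and 0.577). With no filter for low counts these genes passed (adjusted p = 0.0399, 0.00583 and 0.00261), and Idh1 also passed with DESeq2 (0.0487).

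The precision of the test set what could be seen. Among the 10554 genes that averaged 5 CPM or more, the median SE of the difference was 0.26 on the log2 scale, against 0.184 for the effect in RS and 0.185 for that in MII. For 7898 of them (74.8%) the 95% interval of the difference, taken gene by gene, lay within 1 log2 unit of 0. A gene that missed the threshold is therefore not shown to respond alike in both stages. Across these 10554 genes the effects in RS and MII, which share no library, correlated with a Pearson r of 0.692 (Spearman rho 0.639), and leaving out the library labelled KO RS replicate 1 gave an r of 0.697. The sign was the same for 71.7% of them. These are descriptions over genes, which are not independent replicates, and all effects of a stage rest on the same 6 libraries.

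**Figure D3:**
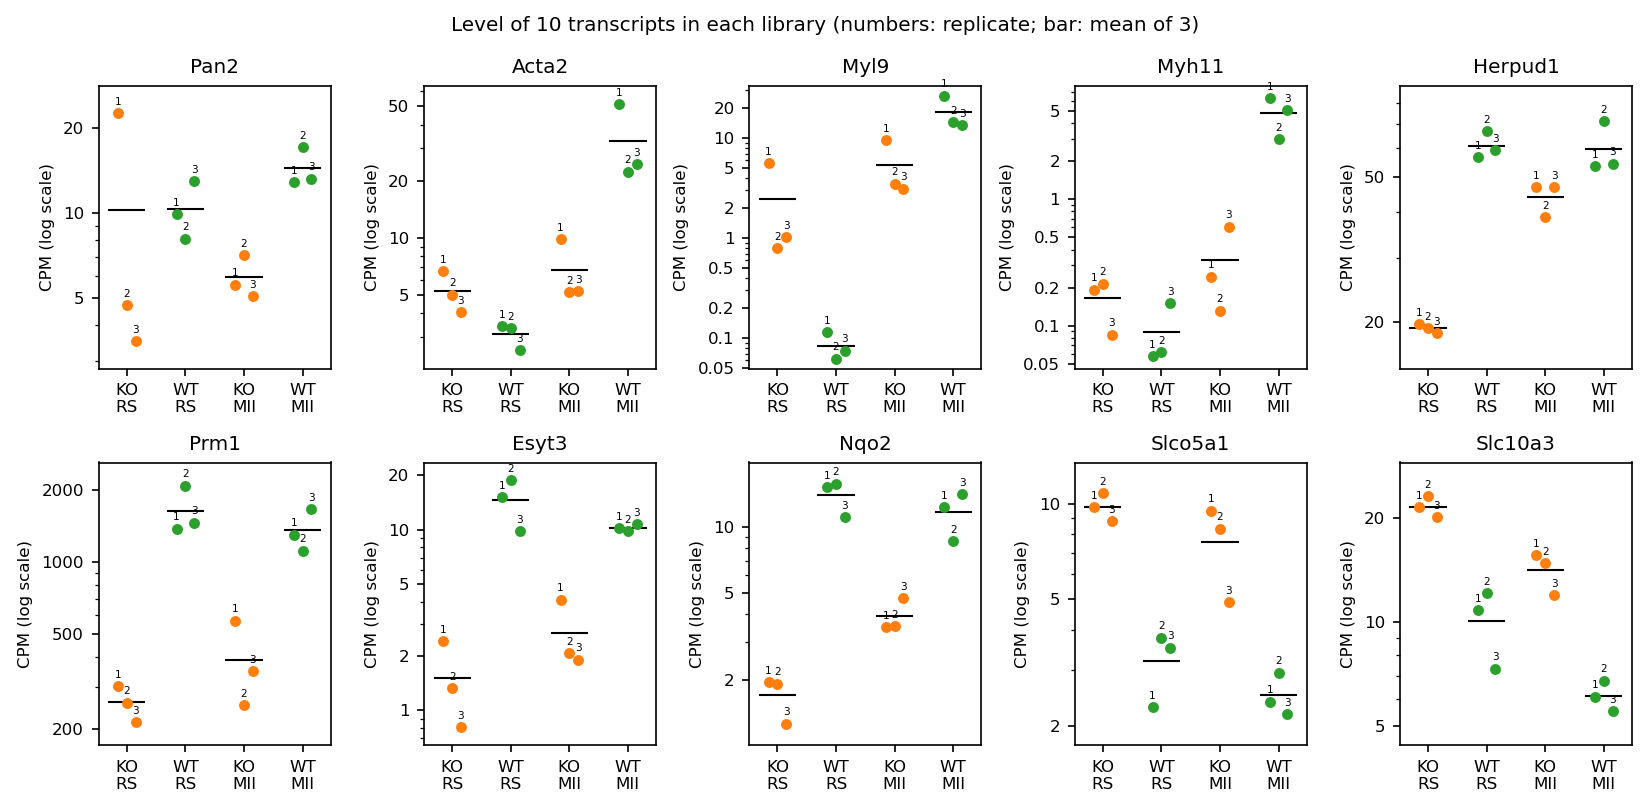
CPM (log axis) of 10 transcripts in every library, with KO left of WT in each stage, replicate numbers above the points and a bar at the group mean. KO and WT change order between stages for Acta2 and Myl9, Herpud1 is low in the 3 KO RS libraries (18.6 to 19.7 CPM), and the lower row shows genes called in the same direction in both stages.

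The other side of the design is the set of genes whose change both stages shared. A gene counted as shared when it was called in KO against WT in RS and in MII with the same sign. In RS 2863 genes were called (13.4%), 1290 higher (6.06%) and 1573 lower (7.39%), and in MII 784 genes (3.68%), 389 higher (1.83%) and 395 lower (1.86%). Of these, 539 were shared (2.53% of genes tested), 262 higher (1.23%) and 277 lower (1.30%), and 0 were called in opposite directions. They made up 18.8% of the RS calls and 68.75% of the MII calls. With the total count in place of TMM scaling the split moved to 206 higher and 335 lower, and that of the RS calls to 1014 higher and 1953 lower. In 529 of the 539 genes (98.1%) KO and WT libraries did not overlap in either stage, where 11.8% of all genes tested did so in the same direction and 0.305% in opposite directions (36.1% in RS and 22.2% in MII taken alone). These counts follow from the rule and are no separate evidence.

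The number of shared genes rested on single libraries. Leaving out the library labelled KO RS replicate 1 left 1080 RS calls (4.95% of 21811), 366 higher (1.68%) and 714 lower (3.27%), and 694 MII calls (3.18%). Of the genes, 355 were then shared (1.63%), 130 higher (0.596%) and 225 lower (1.03%), and 1 gene was called in opposite directions (0.00458%). Of the 539 genes, 331 (61.4%) were also shared without it, which is 93.2% of those 355. The count of shared genes fell to 232, 124 and 350 without KO MII replicates 1, 2 and 3, to 238 without WT MII replicate 3, to 280 without WT RS replicate 1 and to 335 without the library labelled KO RS replicate 2. RS calls fell to 1347 without the library labelled KO RS replicate 2, to 1483 without WT RS replicate 1 and to 1139 without WT RS replicate 3. MII calls fell to 272, 147 and 458 without KO MII replicates 1, 2 and 3, to 264 without WT MII replicate 3 and to 469 without WT RS replicate 1. With the mean log2 CPM of the Sertoli and of the Leydig markers as covariates, 4 shared genes were left, all lower in KO. They were Prm1, Esyt3, 3110070M22Rik and 1700003O11Rik. Sertoli sums separated KO from WT in each stage, so this fit cannot part genotype from these transcripts.

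The sizes of the effects chose the shared genes and are given as a description, while length, gene type and position did not enter the rule. The lower genes had a median effect of -1.71 in RS and -1.41 in MII, and 188 of 277 changed at least 2-fold in both stages. The higher genes had a median effect of 0.78 in RS and 0.77 in MII, and 53 of 262 reached that size in both. The effect was larger in RS than in MII for 196 of 277 lower genes and 122 of 262 higher genes, with median differences of -0.22 and -0.01. The 95% interval of the difference lay within 1 log2 unit of 0 for 89 lower and 221 higher genes, and an unadjusted p under 0.05 was reached by 37 lower and 6 higher genes. Higher genes were more abundant, with a median of the mean CPM of 36.2, against 5.93 for lower genes and 4.89 over all genes tested. Their median exon length was 3116.5 bases, against 2030 bases for lower genes and 3014 bases over all. The share of protein-coding genes was 81.7% among higher and 66.1% among lower genes, against 69.2% over all. These differences were not tested.

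Position set the directions apart as well. On the X chromosome lay 64 of the 262 higher genes (24.4%) and 0 of the 277 lower genes, where 790 of 21291 tested genes (3.71%) are X-linked. By chromosome, shared higher genes were 8.10% of tested genes on X and at most 1.60%, on chromosome 18, on any other. Shared lower genes were at most 2.19% of tested genes, on chromosome 16, which carries the protamine cluster. Over all 790 tested X-linked genes, 238 were higher and 2 lower in RS and 87 were higher and 0 lower in MII. Their median effect was 0.67 in RS and 0.48 in MII, with a median difference of 0.18. Without the library labelled KO RS replicate 1 the RS counts were 95 higher and 0 lower. Among all 21291 genes tested, 6.06% were higher and 7.39% lower in RS and 1.83% higher and 1.86% lower in MII. Within 5 Mb of Pan2 on chromosome 10, 1 of 96 tested genes was shared, Olfr787. The X chromosome is silenced in late meiosis and partly reactivated in round spermatids. Sertoli transcripts were higher in every KO library than in every WT library of its stage. With the Sertoli and Leydig covariates 0 genes were shared higher. That fit cannot part genotype from these transcripts, and calls fell from 2863 to 126 in RS and from 784 to 7 in MII. The part of these transcripts in the X-linked values was not tested.

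The leading shared lower gene was 3110070M22Rik, an uncharacterised protein-coding gene (chromosome 13, 119487252 to 119488384, minus strand). 3110070M22Rik stood at 0.965, 0.716 and 0.678 CPM in KO RS libraries, against 158, 159 and 164 CPM in WT RS libraries. The MII values were 0.976, 0.629 and 0.607 CPM in KO libraries, against 126, 153 and 145 CPM in WT libraries. All 6 KO libraries lay far below all 6 WT libraries, and the groups of each stage were tight. The effect was -7.65 (SE 0.211, adjusted p = 6.60e-15) in RS and -7.59 (SE 0.212, adjusted p = 8.28e-15) in MII, and the difference was -0.05 (95% interval -0.67 to 0.56). In the deposited table it overlaps Tmem267, a membrane protein gene on the opposite strand (chromosome 13, 119488039 to 119611059, plus strand), which was also lower in both stages. KO RS libraries had 61.2, 62.7 and 64.7 CPM of Tmem267, against 174, 134 and 135 CPM in WT RS libraries. KO MII libraries had 68.6, 73.3 and 62.4 CPM, against 199, 148 and 149 CPM in WT MII libraries. The Tmem267 groups did not overlap in either stage, and its effect was -1.24 (SE 0.151, adjusted p = 4.97e-05) in RS and -1.28 (SE 0.152, adjusted p = 0.000169) in MII. The labels do not say whether reads were counted by strand, so reads of the overlap may not be told apart. A neighbouring gene, 4833420G17Rik, had effects of -0.35 (adjusted p = 0.178) in RS and -0.19 (adjusted p = 0.558) in MII, and Nnt, the mitochondrial transhydrogenase farther along, had -0.38 (adjusted p = 0.149) and -0.01 (adjusted p = 0.985). These 3 neighbours were chosen after their values were seen. The call of 3110070M22Rik held in both stages in all settings tried.

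Genes that pack sperm chromatin were among the shared lower genes. Of 23 tested genes of the protamine and transition protein list, 2 were higher and 5 lower in RS, 1 was higher and 5 were lower in MII, and 6 were shared (in RS 1 higher and 5 lower, and 5 shared, without the library labelled KO RS replicate 1). Among all genes tested, 6.06% were higher and 7.39% lower in RS, 1.83% higher and 1.86% lower in MII and 2.53% shared. The median effect over the list was 0.02 in RS and 0.01 in MII, signs that turned under total-count scaling. Its median difference was -0.07. The 5 lower genes were Prm1, Prm2, Tnp1, Tnp2 and Tssk6. Prm1 encodes protamine 1, which packs sperm DNA in place of histones (chromosome 16, 10796326 to 10805839, minus strand). Its level was 302, 258 and 214 CPM in KO RS libraries, against 1383, 2097 and 1463 CPM in WT RS libraries. For MII, it was 567, 252 and 348 CPM in KO libraries, against 1304, 1118 and 1670 CPM in WT libraries. The KO groups lay below the WT groups in both stages. The effect on Prm1 was -2.68 (SE 0.254, adjusted p = 7.46e-06) in RS and -1.81 (SE 0.246, adjusted p = 0.00110) in MII, and the difference was -0.87 (SE 0.338, 95% interval -1.58 to -0.16, adjusted p = 0.735).

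Prm2, the other protamine, showed the same order. Prm2 was counted at 324, 301 and 234 CPM in KO RS libraries, against 1294, 1861 and 1217 CPM in WT RS libraries. Within MII, levels were 482, 255 and 335 CPM in KO, against 838, 893 and 1026 CPM in WT. Neither stage overlapped, and the effects were -2.35 in RS and -1.36 in MII, with a difference of -0.98 (SE 0.281, adjusted p = 0.735). Tnp2, a transition protein that binds DNA between histones and protamines, had 313, 292 and 221 CPM in KO RS libraries, against 1143, 1659 and 1076 CPM in WT RS libraries. In MII it had 432, 245 and 307 CPM in KO libraries, against 842, 851 and 1389 CPM in WT libraries. Its groups did not overlap in either stage, with effects of -2.23 in RS and -1.65 in MII. Tnp1, the other transition protein, had -1.33 in RS and -1.03 in MII, and its MII call was lost without KO MII replicate 2 (adjusted p = 0.103), KO MII replicate 3 (0.0621), WT MII replicate 1 (0.0515) or WT MII replicate 3 (0.0794). Tssk6, a kinase of condensing spermatids, had -1.5 in RS and -1.06 in MII, and its MII call was lost without KO MII replicate 2 (adjusted p = 0.0700). None of these 5 genes passed the test of the difference in the main fit. With no filter for low counts Prm1 (adjusted p = 0.0316) and Prm2 (0.00288) passed the same test.

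The Prm1 promoter is shown because Prm1 kept its call in both stages under every setting and lies in the cluster with Prm2 and Tnp2. Capitals mark TGACNTCA, the form that the cAMP-responsive element takes in promoters of haploid germ cells, searched on both strands (RefSeq, GRCm38.p6, 250 bases before to 50 bases after the start).
Prm1 (chr16:10796774-10797073, minus strand): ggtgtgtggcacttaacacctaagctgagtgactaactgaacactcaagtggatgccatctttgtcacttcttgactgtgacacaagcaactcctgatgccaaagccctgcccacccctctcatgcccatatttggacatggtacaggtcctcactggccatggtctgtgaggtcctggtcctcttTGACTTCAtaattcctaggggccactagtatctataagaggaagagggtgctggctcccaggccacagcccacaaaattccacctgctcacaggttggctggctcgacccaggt
The window held 1 match, at base 187. TGACNTCA was found in 8.83% of all 32851 windows, in 11.2% of tested genes with a window, and in 22 of 199 shared lower genes with a window (11.1%) and 26 of 193 shared higher ones (13.5%). TGACGTCA, which every TGACNTCA count includes, was found in 1.79% of all windows, in 3.13% of tested genes with one, and in 2.01% of lower and 3.63% of higher genes. A strict CArG box was found in 7 of 199 shared lower genes (3.52%) and 3 of 193 shared higher genes (1.55%).

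Another leading shared lower gene was Nqo2, a quinone reductase. Nqo2 stood at 1.96, 1.93 and 1.27 CPM in KO RS libraries, against 15.1, 15.7 and 11.1 CPM in WT RS libraries. The MII values were 3.50, 3.54 and 4.73 CPM in KO libraries, against 12.2, 8.59 and 14 CPM in WT libraries. KO libraries lay below WT libraries in both stages, and the KO RS libraries were the lowest. The Nqo2 effect was -3.01 in RS and -1.57 in MII, with a difference of -1.43 (SE 0.344, 95% interval -2.15 to -0.72), which did not pass the test (adjusted p = 0.468). With no filter for low counts it passed (adjusted p = 0.0317). Esyt3, which tethers the endoplasmic reticulum to the plasma membrane, had 2.41, 1.33 and 0.805 CPM in KO RS libraries, against 15.1, 18.8 and 9.84 CPM in WT RS libraries. Among MII libraries it had 4.11, 2.07 and 1.91 CPM in KO libraries, against 10.2, 9.84 and 10.7 CPM in WT libraries. Its groups did not overlap in either stage, and its effects were -3.24 in RS and -1.93 in MII (difference -1.31, adjusted p = 0.735). Dropping the library labelled KO RS replicate 1 gave differences of -1.83 for Esyt3 and -1.54 for Nqo2. Plekho2, a protein with a pleckstrin homology domain, had effects of -3.09 in RS and -1.84 in MII. Tex46, a testis-expressed gene, had -3.27 and -2.91, 1700025G04Rik -2.65 and -2.22, and Tmem151a, a membrane protein gene, -2.67 and -2.02, each in RS and in MII. Car2, a carbonic anhydrase that spermatids express late, had -2.57 in RS and -1.76 in MII. Klk1b8, a kallikrein with near-identical copies whose reads may be shared, had -2.38 in RS and -2.18 in MII. None of these 8 genes passed the test of the difference in the main fit, and Tmem151a lost its MII call without KO MII replicate 2 (adjusted p = 0.0527).

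**Figure D4:**
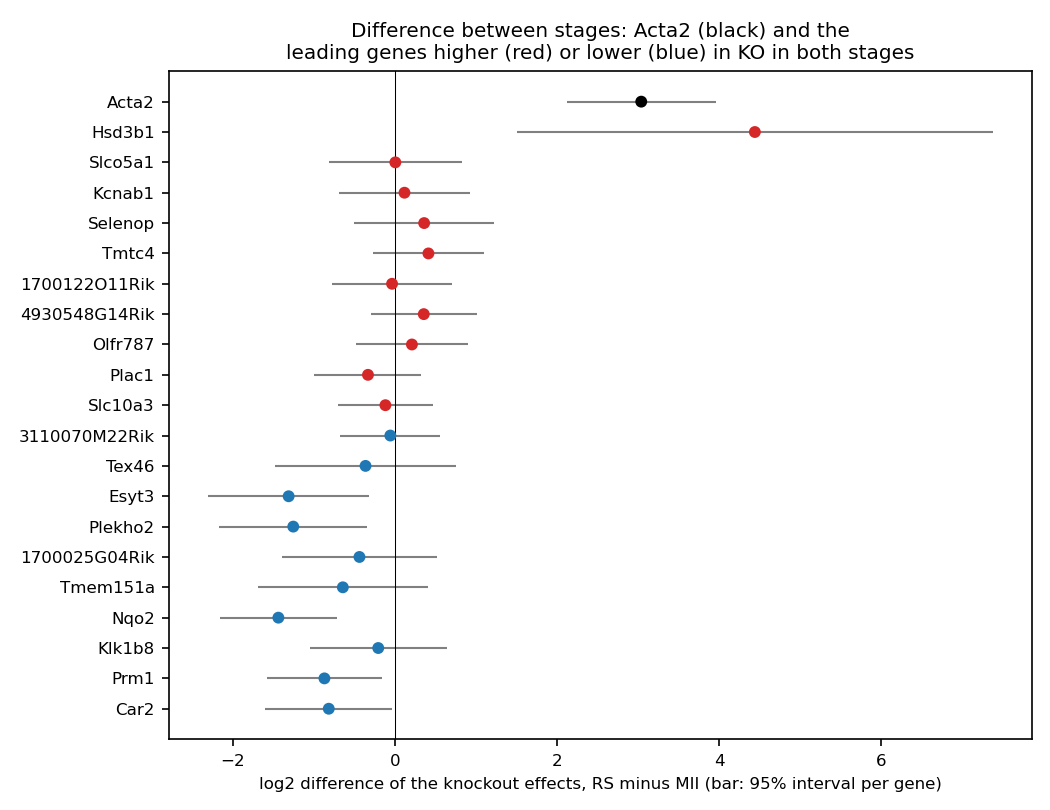
Difference of the knockout effects, RS minus MII, on the log2 scale, with its 95% interval taken gene by gene, for Acta2 and the 10 leading genes higher and 10 leading genes lower in KO in both stages. Acta2 lies at 3.04, 9 of the 10 higher genes lie between -0.33 and 0.42, Hsd3b1 has a wide interval, and the lower genes lie at or left of 0 (-1.43 to -0.05).

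The leading shared higher genes other than Hsd3b1 had differences between -0.33 and 0.42. Slco5a1 encodes a membrane protein of an anion transporter family. KO RS libraries had 9.74, 10.8 and 8.81 CPM of Slco5a1, against 2.29, 3.78 and 3.52 CPM in WT RS libraries. KO MII libraries had 9.51, 8.34 and 4.90 CPM, against 2.38, 2.94 and 2.17 CPM in WT MII libraries. All KO libraries lay above all WT libraries in both stages. The effects were 1.62 in RS and 1.61 in MII, with a difference of 0.01 (95% interval -0.81 to 0.83). Slc10a3, a gene of a bile acid transporter family on the X chromosome, was as even. Its level was 21.4, 23.1 and 20.1 CPM in KO RS libraries, against 10.8, 12.1 and 7.33 CPM in WT RS libraries. For MII, it was 15.6, 14.8 and 11.9 CPM in KO libraries, against 6.08, 6.76 and 5.52 CPM in WT libraries. Its KO and WT libraries did not overlap in either stage, and its difference was -0.12 (95% interval -0.70 to 0.47). Plac1, an X-linked gene known from the placenta, had 1.05 in RS and 1.38 in MII, and 1700122O11Rik had 1.32 and 1.35. Tmtc4, a mannosyltransferase of the endoplasmic reticulum, had 1.57 in RS and 1.16 in MII, Kcnab1, a subunit of potassium channels, 1.5 and 1.39, and the lincRNA 4930548G14Rik 1.49 and 1.13. Olfr787, of the odorant receptor family, had 1.34 in RS and 1.13 in MII. Tmtc4 lost its MII call without KO MII replicate 1 (adjusted p = 0.0549) or KO MII replicate 2 (0.0700), Olfr787 without KO MII replicate 1 (adjusted p = 0.0503) or KO MII replicate 2 (0.0957), Kcnab1 without KO MII replicate 2 (adjusted p = 0.0534) or WT MII replicate 3 (0.0635) and 4930548G14Rik without KO MII replicate 2 (adjusted p = 0.0638).

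Some shared higher genes are known from somatic cells. Whether their levels followed the marker sums of these cells was not tested. Selenop, a secreted selenium carrier that somatic cells make, had 2.41, 1.93 and 1.99 CPM in KO RS libraries, against 0.572, 0.930 and 0.599 CPM in WT RS libraries. The MII libraries had 19.9, 12.3 and 8.72 CPM in KO libraries, against 6.50, 5.38 and 5.67 CPM in WT libraries. Its groups did not overlap in either stage, and its effects were 1.59 in RS and 1.22 in MII. The MII call of Selenop was lost without KO MII replicate 1 (adjusted p = 0.130), KO MII replicate 2 (0.0580) or WT MII replicate 3 (0.0675). Hsd3b1, a steroid-making enzyme of Leydig cells, had 0.193, 0.430 and 0.0847 CPM in KO RS libraries, where every WT RS library had 0. Against the floor of 3 counts over the WT RS libraries it was at least 7.58-fold higher in KO RS libraries. In MII it had 20.8, 9.65 and 15.4 CPM in KO libraries, against 4.61, 7.57 and 5.97 CPM in WT libraries, an effect of 1.32 whose call was lost without KO MII replicate 1 (adjusted p = 0.155), KO MII replicate 3 (0.0632), WT MII replicate 1 (0.0824) or WT MII replicate 3 (0.0896). Amhr2, the receptor of the anti-Müllerian hormone in Sertoli cells, had 13.4, 3.51 and 4.32 CPM in KO RS libraries, against 1.89, 1.80 and 1.87 CPM in WT RS libraries. Among MII libraries it had 13.6, 5.66 and 4.08 CPM in KO libraries, against 1.40, 1.96 and 2.26 CPM in WT libraries. The highest Amhr2 values were in replicate 1 of each KO group, which also had the highest Sertoli sums (400.0 CPM in RS and 564 CPM in MII). Its RS call was lost without the library labelled KO RS replicate 1 (adjusted p = 0.115), WT RS replicate 1 (0.0510), WT RS replicate 2 (0.0516) or WT RS replicate 3 (0.0890). Its MII call was lost without WT RS replicate 2 (adjusted p = 0.0561), WT RS replicate 3 (0.0555), KO MII replicate 1 (0.137), KO MII replicate 2 (0.0610), WT MII replicate 1 (0.0752), WT MII replicate 2 (0.0981) or WT MII replicate 3 (0.0845). Over the 26 tested Sertoli markers, 17 were higher in RS and 3 in MII, with medians of 3.74 and 2.24 and a median difference of 1.28. Without the library labelled KO RS replicate 1, 6 were higher in RS and the median difference was 0.49. Among all genes tested, 6.06% were higher in RS (1.68% without that library) and 1.83% in MII.

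Stra8, whose promoter drives the Cre, was itself a shared higher gene. It marks spermatogonia that enter meiosis. It had 1.99, 0.430 and 0.0847 CPM in KO RS libraries, where every WT RS library had 0, at least 28.8-fold higher against the floor of 3 counts over the WT RS libraries. The bound was at least 8.51-fold higher without the library labelled KO RS replicate 1, outside which lay 14 of the 76 counts. The MII libraries had 4.39, 0.944 and 0.607 CPM in KO libraries, against 0, 0.0890 and 0.0301 CPM in WT libraries. Every KO library lay above every WT library of its stage, and replicate 1 was the highest in both KO groups. The MII call was lost without KO MII replicate 1 (adjusted p = 0.115), WT MII replicate 1 (0.0557), WT MII replicate 2 (0.0631) or WT MII replicate 3 (0.101). Of the 16 tested spermatogonia markers, 3 were higher and 2 lower in RS and 1 was higher in MII and shared (in RS 1 higher and 0 lower, and 1 shared, without the library labelled KO RS replicate 1). Among all genes tested, 6.06% were higher and 7.39% lower in RS and 1.83% higher in MII. The 16 markers summed to 743 to 811 CPM in KO RS libraries, against 1032 to 1230 CPM in WT RS libraries, the other way from Stra8. In MII their ranges overlapped (575 to 789 CPM in KO, 703 to 922 CPM in WT). Their median effect was 0.16 in RS and 0.43 in MII. Whether reads of the transgene added to the Stra8 count was not tested.

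RNA tail and decay genes are the closest to PAN2 in function. Their counts, and those of the lists after them, stand beside 6.06% higher and 7.39% lower in RS, 1.83% higher and 1.86% lower in MII and 2.53% shared over all genes. Of 27 deadenylase genes, 0 were higher and 2 lower in RS and 0 were called in MII (in RS 0 higher and 2 lower, and 1 shared, without the library labelled KO RS replicate 1), with a median difference of -0.23. The list includes Pan2, which is the gene shared without that library. Pnldc1, a poly(A)-specific ribonuclease that trims piRNAs in mice, had 2.25, 1.18 and 0.635 CPM in KO RS libraries, against 2.60, 2.92 and 4.04 CPM in WT RS libraries. In MII it had 3.58, 4.22 and 3.04 CPM in KO libraries, against 2.51, 3.12 and 2.95 CPM in WT libraries. KO lay below WT in RS, with an effect of -1.21 (adjusted p = 0.0290), and 2 of the 3 KO MII libraries lay above all WT MII libraries. The RS call was lost without KO RS replicate 2 (adjusted p = 0.107), KO RS replicate 3 (0.106) or WT RS replicate 3 (0.131), and the difference of -1.54 did not pass (adjusted p = 0.735). Of 41 poly(A) polymerase, polyadenylation and poly(A)-binding genes, 3 were higher and 7 lower in RS and 1 was higher in MII (in RS 0 higher and 2 lower, and 0 shared, without the library labelled KO RS replicate 1). That gene, the X-linked noncanonical poly(A) polymerase Tent5d, was shared, at 0.71 in RS and 0.86 in MII. Its RS call was lost without the library labelled KO RS replicate 1 (adjusted p = 0.0506), KO RS replicate 2 (0.0801), WT RS replicate 1 (0.0533) or WT RS replicate 3 (0.0758). Its MII call was lost without KO MII replicate 2 (adjusted p = 0.103) or WT MII replicate 3 (0.0683). Of 46 decay genes, 2 were higher and 7 lower in RS and 1 was higher and 2 lower in MII (in RS 1 higher and 4 lower, and 1 shared, without the library labelled KO RS replicate 1).

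Mtrex, the helicase that feeds RNA to the nuclear exosome, was the shared decay gene. Mtrex was counted at 194, 211 and 208 CPM in KO RS libraries, against 136, 131 and 128 CPM in WT RS libraries. Within MII, levels were 184, 209.7 and 178 CPM in KO, against 127, 111 and 98.1 CPM in WT. The groups did not overlap in either stage, the effect was 0.63 in RS and 0.77 in MII, and both calls held when any 1 library was left out. Of 45 translational control genes, 4 were higher and 4 lower in RS and 1, Dazl, was higher in MII and shared (in RS 0 higher and 0 lower, and 0 shared, without the library labelled KO RS replicate 1). Dazl, an RNA-binding protein that promotes translation in germ cells, had 36.6, 29.6 and 27.5 CPM in KO RS libraries, against 17.4, 20.2 and 18.1 CPM in WT RS libraries. Among MII libraries it had 43.2, 32.6 and 19.6 CPM in KO libraries, against 12.4, 12.5 and 15.3 CPM in WT libraries. All KO values lay above the WT values of their stage. Its difference was -0.49 (adjusted p = 0.745), and its RS call was lost without the library labelled KO RS replicate 1 (adjusted p = 0.146), KO RS replicate 2 (0.0736), WT RS replicate 1 (0.122) or WT RS replicate 3 (0.0978). Ribosomal protein genes had 4 higher and 2 lower of 82 in RS and 1 lower in MII, which was shared (in RS 2 higher and 0 lower, and 0 shared, without the library labelled KO RS replicate 1). Translation factor genes had 1 higher and 4 lower of 47 in RS and 1 higher in MII, which was shared (in RS 1 higher and 1 lower, and 1 shared, without the library labelled KO RS replicate 1).

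Of 55 tested genes of the meiotic divisions, 0 were higher and 19 lower in RS, and 0 were higher and 1 lower in MII (in RS 0 higher and 11 lower, and 1 shared, without the library labelled KO RS replicate 1), where 7.39% of all genes were lower in RS and 1.86% in MII. The median effect was -0.36 in RS and -0.04 in MII, and the median difference was -0.35. Of the 55 differences, 10 lay above 0 and 11 had an unadjusted p under 0.05. Over all 21291 genes tested, 10173 lay above 0 and 1405 had such a p. None passed the test of the difference in the main fit (smallest adjusted p = 0.623, Cdc20). Bub3, a protein of the spindle checkpoint, was the member called in both stages. Bub3 stood at 20.3, 18.4 and 21.3 CPM in KO RS libraries, against 55.1, 43.1 and 63.9 CPM in WT RS libraries. The MII values were 49.6, 52.6 and 54.9 CPM in KO libraries, against 69.8, 86.9 and 94.8 CPM in WT libraries. KO lay below WT in each stage, with effects of -1.43 in RS and -0.68 in MII and a difference of -0.75 (SE 0.230, adjusted p = 0.735). The MII call of Bub3 was lost without KO MII replicate 1 (adjusted p = 0.0898), KO MII replicate 2 (0.102), KO MII replicate 3 (0.0583) or WT MII replicate 3 (0.0838). Aurkb, the kinase of the chromosomal passenger complex, had -1.25 in RS (adjusted p = 0.00189) and -0.66 in MII (adjusted p = 0.0955). Of 18 late spermatocyte markers, 0 were higher and 7 lower in RS and 0 were called in MII (in RS 0 higher and 4 lower, and 0 shared, without the library labelled KO RS replicate 1). Their summed level, given above, overlapped between KO and WT in both stages.

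The next lists held no gene with a called difference in the main fit. Of 25 cholesterol synthesis genes, 0 were higher and 3 lower in RS and 2 were higher and 0 lower in MII (in RS 0 higher and 1 lower, and 1 shared, without the library labelled KO RS replicate 1), with medians of -0.20 and 0.18. Msmo1, a sterol oxidase of that pathway, had 2.64, 3.37 and 2.54 CPM in KO RS libraries, against 2.58, 1.98 and 2.10 CPM in WT RS libraries. The MII libraries had 11.6, 8.18 and 5.47 CPM in KO libraries, against 1.68, 2.40 and 2.68 CPM in WT libraries. Only the MII groups lay clearly apart, with an effect of 1.87 in MII (adjusted p = 0.00158) and 0.36 in RS (adjusted p = 0.450) and a difference of -1.52 (adjusted p = 0.697). Leydig markers were higher in the same KO MII libraries (272 to 428 CPM, against 194 to 201 CPM in WT MII). With the Sertoli and Leydig covariates the MII effect of Msmo1 was 1.31 and not called (edgeR quasi-likelihood test, adjusted p = 0.999). Both marker sums separated KO from WT in MII, so the part of these transcripts in the Msmo1 value cannot be told apart. Insig1, which holds back sterol synthesis, was at -2.37 in RS (adjusted p = 0.000287) and -1.07 in MII (adjusted p = 0.0847). Its MII effect passed with DESeq2 (adjusted p = 0.0374) and without the library labelled KO RS replicate 1 (-1.07, adjusted p = 0.0430). Of 37 stress and chaperone genes, 2 were higher and 8 lower in RS and 2 were higher and 1 lower in MII, of which 1 was shared (in RS 0 higher and 4 lower, and 0 shared, without the library labelled KO RS replicate 1), with a median difference of -0.29. Of 77 nuclear genes of oxidative phosphorylation, 1 was higher and 6 lower in RS and 3 were lower in MII, of which 1 was shared (in RS 0 higher and 3 lower, and 1 shared, without the library labelled KO RS replicate 1). Their median effect was 0.06 in RS, where its sign turned under total-count scaling, and -0.22 in MII. Of their 77 differences, 60 lay above 0, against 10173 of 21291 over all genes tested.

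Genes of the sperm head and tail had members called in both stages and none with a called difference in the main fit. Of 56 acrosome genes, 12 were higher and 2 lower in RS and 2 were higher in MII, of which 1 was shared (in RS 6 higher and 0 lower, and 1 shared, without the library labelled KO RS replicate 1), with a median difference of 0.08. Spam1, the hyaluronidase of the acrosome, was shared. KO RS libraries had 379, 380.3 and 332 CPM of Spam1, against 195, 207 and 147 CPM in WT RS libraries. KO MII libraries had 256, 327 and 220.0 CPM, against 174, 113 and 170.4 CPM in WT MII libraries. The groups did not overlap in either stage, and the effects were 0.99 in RS and 0.81 in MII, the MII call being lost without KO MII replicate 1 (adjusted p = 0.0543) or KO MII replicate 2 (0.114). Of 101 flagellum genes, 11 were higher and 5 lower in RS, 6 were higher in MII and 5 were shared, all higher. Their median effect was 0.03 in RS, where the sign turned under total-count scaling, and 0.18 in MII. Without the library labelled KO RS replicate 1, 4 of the 101 were higher and 0 lower in RS and 1 was shared. Of 22 elongating spermatid markers, 3 were higher and 9 lower in RS, 2 were higher and 7 lower in MII, and 9 were shared in those directions (in RS 1 higher and 9 lower, and 7 shared, without the library labelled KO RS replicate 1). Of 27 sex-linked multicopy genes, whose near-identical copies may share reads, 7 were higher in RS and 2 in MII, and those 2 were shared (in RS 2 higher and 0 lower, and 1 shared, without the library labelled KO RS replicate 1).

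**Figure D5:**
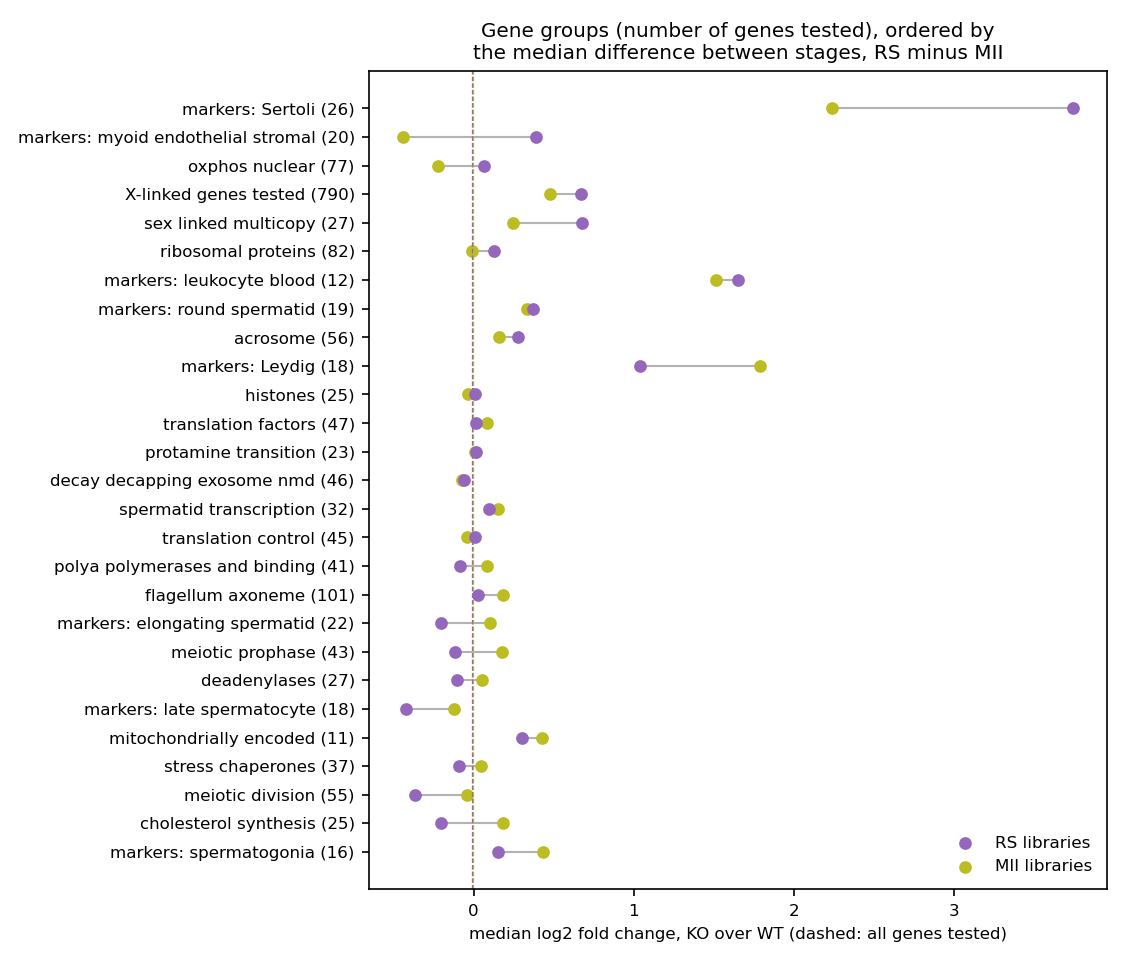
Median log2 fold change of KO over WT for 27 gene groups, in RS (purple) and in MII libraries (olive), ordered by the median difference between stages, with the number of genes tested and dashed lines at the medians of all genes. Sertoli markers lie far to the right in both stages (3.74 and 2.24), the myoid, endothelial and stromal markers cross 0 (0.39 and -0.44), and the meiotic division genes lie lower in RS (-0.36 and -0.04).

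Most genes called in 1 stage only leaned the same way in the other. Of 2324 genes called in RS and not in MII, 2214 (95.3%) had the same sign in MII, and 597 (25.7%) had an unadjusted p under 0.05 for the difference. Of 245 genes called in MII and not in RS, 232 (94.7%) had the same sign in RS, and 56 (22.9%) had such a p. Over all genes tested 6.60% had such a p. Picking genes called in 1 stage only itself favours larger differences, so these shares are no separate evidence. Over all 21291 genes the sign was the same for 68.9%. A call in 1 stage alone therefore did not show that the effect differed between stages.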

How the data were processed

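Whole-number counts per gene were deposited by the authors in 1 table with 12 columns, raw and not normalized. Tools named per the submitters' processing notes are featureCounts 2.0.2, STAR 2.7.10a, Trim Galore 0.6.7 and DESeq2, with the mm10 build. How strand and multiply matching reads were handled is not given in the sources used.

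Of 55291 genes, 37839 had a count, and 21291 were kept by filterByExpr of edgeR (counts of at least 10, totals of at least 15). Library sizes were scaled by TMM, and CPM and log2 fold changes were computed from the counts. edgeR 4.0.16 (limma 3.58.1, R 4.3.3) fitted the 4 group means by robust quasi-likelihood with 8 residual degrees of freedom, and p-values were adjusted by Benjamini-Hochberg over all genes tested, with calls at an adjusted p under 0.05. The difference of the effects was tested as an interaction. Shared genes were called in both stages with 1 sign. SE is the size of the log2 fold change divided by the square root of F, and intervals are 95% per gene.

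Named genes were Pan2, called genes of the interaction, the 10 highest and 10 lowest shared genes that averaged 5 CPM or more and had no overlap of KO and WT libraries, up to 3 shared or interaction members of each list and, for lists with neither, the 2 with the smallest interaction p. Genes outside this rule were chosen after their values were seen, and Odf3b, Tnp1, Tssk6, Insig1 and Aurkb are among them. The members and lists were chosen with earlier results of these data known. Alternatives were other scalings, filters and thresholds, DESeq2 1.42.0, limma-voom, replicate blocks, marker covariates and leaving out each library. The tests were tried on simulated counts first.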

Additional observations from a re-analysis of the deposited data

Results flagged for a closer look

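The knockout effects on Acta2, the smooth muscle actin gene, differed between stages by 3.04 on the log2 scale, RS minus MII, by the test of the difference itself. It was 0.76 in RS, where all 3 KO libraries lay above all 3 WT libraries, and -2.27 in MII, where all 3 KO libraries lay below all 3 WT libraries. The call was lost in 9 of 23 alternative settings, which were limma-voom (adjusted p = 0.0645), a filter of 5 CPM in 3 libraries (0.0771) and 7 of the 12 omissions of 1 library (0.0566 to 0.215). The markers of myoid, endothelial and stromal cells without Actg2 summed to 22.7 to 34.3 CPM in KO RS libraries and 18.7 to 22.2 CPM in WT RS libraries, and to 56.8 to 124 CPM in KO MII libraries and 106 to 184 CPM in WT MII libraries. With Actg2 the KO and WT ranges overlapped in both stages. The part of these transcripts in the result was not tested.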

How the results depend on the processing

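Of the recomputed effects of named genes, 4716 kept their side of the threshold, the uncalled ones within 1 SE of the main value. A call was lost in 350 and gained in 56. Uncalled values moved by at least 1 SE in 66, and 5 effects changed direction with a call in either fit. The count of genes with a called difference (1) was 19 with DESeq2, 65 with no filter, 0 with a filter of 5 CPM in 3 libraries (754 at an unadjusted p under 0.05) and with limma-voom (1391 at an unadjusted p under 0.05), 10 with Sertoli and Leydig covariates, and 0 to 2 with 1 library left out. MII calls (784) were 1519 with DESeq2, 7 with covariates, 1589 at an adjusted p under 0.10, 375 at a fold of at least 2, 1440 with no filter and 147 to 976 with 1 library left out. RS calls (2863) were 126 with covariates, 4398 at an adjusted p under 0.10, 1177 at a fold of at least 2 and 1080 to 3573 with 1 library left out. Shared genes (539) numbered 942 with DESeq2, 4 with covariates, 1048 at an adjusted p under 0.10, 241 at a fold of at least 2, 920 with no filter and 124 to 646 with 1 library left out. Shared higher genes (262) numbered 491, 0, 568, 53 and 536 under the same settings and 35 to 357 with 1 library left out. Shared lower genes (277) numbered 451 with DESeq2, 4 with covariates, 480 at an adjusted p under 0.10 and 89 to 319 with 1 library left out. The effect changed sign with covariates for Amhr2 (-0.61 in RS, -0.16 in MII), Dazl (-0.040 in RS) and Stra8 (-0.25 in MII), and for Pan2 in RS without the library labelled KO RS replicate 1 (with 1 library left out, -1.32 to 0.41). The causes were not tested.

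With the replicate number as a block, 3 genes passed the test of the difference and 525 were shared, and with blocks within genotype 2 genes passed. Same-numbered deviations correlated between -0.52 and 0.54, so the numbers were not taken to pair the libraries. Each of the 3 KO MII libraries correlated best with the KO RS library of its own number (r of 0.417, 0.0924 and 0.378) and none of the WT libraries did, a hint from the data and not from the design. With 3 libraries per group, small differences between stages could not be seen (median SE 0.26 among genes of at least 5 CPM).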
